A study of Mus musculus with 3 samples.

Results

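Heat shock proteins and J-domain chaperones are described here across 3 sorted populations of mouse bone marrow cells. Genes were taken by name: every row whose symbol starts with Hsp and a letter from a to h or a digit, with Dnaja, Dnajb or Dnajc and a digit, or that is one of Hsf1 to Hsf5, leaving out Hspg2, which encodes a matrix proteoglycan. This gave 79 of 23393 genes, of which 63 had a mean of at least 50 over the libraries and were compared, among 11951 genes compared in all. Cells came from C57BL/6 mice with a GFP reporter for Map17 (Pdzk1ip1) and were sorted from the LSK compartment, which is negative for lineage markers and positive for Sca-1 and c-Kit. GFP+ and GFP- hematopoietic stem cells (HSCs) were CD48- and CD150+. Multipotent progenitors (MPPs) were CD48+, CD150- and GFP-. The sources used here do not give the age of the mice, how many were pooled or how the reporter was made. Since each population had 1 library, the spread between replicates is unknown and no test was made, and fewer cells with a transcript cannot be told apart from less transcript per cell.

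Chaperones bind unfolded stretches of other proteins and help them to fold, to cross membranes or to be degraded. Hsp70 proteins do so in cycles of ATP hydrolysis that J-domain proteins start and that nucleotide exchange factors such as the Hsp110 proteins end. Hsp90 acts later on kinases, receptors and other clients, and separate family members serve the endoplasmic reticulum (ER) and the mitochondria. Under protein stress the factor HSF1 binds heat shock elements, arrays of the unit GAA in alternating orientation, and induces Hsp70, Hsp90 and their helpers. Stress in the ER acts through another element, which holds CCAAT and CCACG. Protein synthesis and protein quality control are both known to be kept under tight limits in blood stem cells.

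The measured quantity was the normalized count of a gene in a library, called its level. Summed over all genes it came to between 25311805 and 26689660 per library; these sums follow the authors' scaling and do not give the sequencing depth. Folds between populations are ratios of these levels, except where a log2 ratio is named. The sort genes followed the gates: Slamf1, which encodes CD150, had levels of 17, 2144 and 2219, and Cd48 had 7744, 168 and 64, where the first level is that of MPPs, the next that of GFP- HSCs and the last that of GFP+ HSCs. Levels follow this order throughout. Pdzk1ip1, the gene of the reporter, stood at 290, 3673 and 5659, so GFP+ HSCs were only 1.54-fold above GFP- HSCs.

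Promoter sequences from RefSeq (GRCm38.p6) are shown for members whose levels are described below, to place the known stress elements beside them. Windows of 250 bases before an annotated start were found for 63 of the 79 members, which are not the same 63 as those compared. A gene can have several annotated starts, and a match before any of them was counted. Capitals mark the fixed bases of the motif. The first motif is a head-to-head pair of heat shock units, GAANNTTC, which reads alike on both strands, and for Hspe1 and Dnajb6 the overlapping tail-to-tail pair TTCNNGAA is marked as well.
Hspa1a, chr17:34972217-34972286, minus strand: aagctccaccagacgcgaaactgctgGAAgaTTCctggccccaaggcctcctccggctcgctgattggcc
Hspa1b, chr17:34959299-34959368, minus strand: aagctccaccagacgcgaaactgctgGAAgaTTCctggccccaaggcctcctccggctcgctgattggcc
Hspe1, chr1:55088053-55088082, plus strand: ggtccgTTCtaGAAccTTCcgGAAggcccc
Dnajb6, chr5:29735846-29735870, plus strand: ctccgaGAAtcTTCcgGAAcgctag
Dnaja4, chr9:54699461-54699484, plus strand: acctccgcGAAcgTTCtgggccta
Dnaja4, chr9:54699499-54699522, plus strand: tcctggcgGAAccTTCcgccggcg
Hspb6, chr7:30553161-30553210, plus strand: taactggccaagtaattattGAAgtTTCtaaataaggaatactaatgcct
The Hspa1a and Hspa1b stretches were identical in all 70 bases. The Hspe1 stretch lies before the start of Hspe1 (55088148, plus strand) and, on the other strand, before 1 of 2 annotated starts of Hspd1 (55087932), 216 bases away. From the outer Hspd1 start (55088243) the genes overlap and the stretch lies within Hspd1. The Dnaja4 and Hspb6 stretches likewise lie before internal starts, 711 and 766 bases inside the outermost RefSeq start of the gene. The Hspa1a, Hspa1b and Dnajb6 stretches lie before the outermost RefSeq start. In the GENCODE M21 annotation, however, the Dnajb6 stretch overlaps exons of Dnajb6 and Gm5129. GAANNTTC occurred before the start of 11 of the 63 members (17.5%) and of 2088 of 27025 genes in all (7.73%). TTCNNGAA occurred in 7 members (11.1%) and in 8.11% of all genes, and a run of 3 units, GAANNTTC followed directly by NNGAA, in 3 members (Dnajb6, Hspd1 and Hspe1) and in 0.514% of all genes. Both strands were searched, and the longer run contains both pairs.

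**Figure D1:**
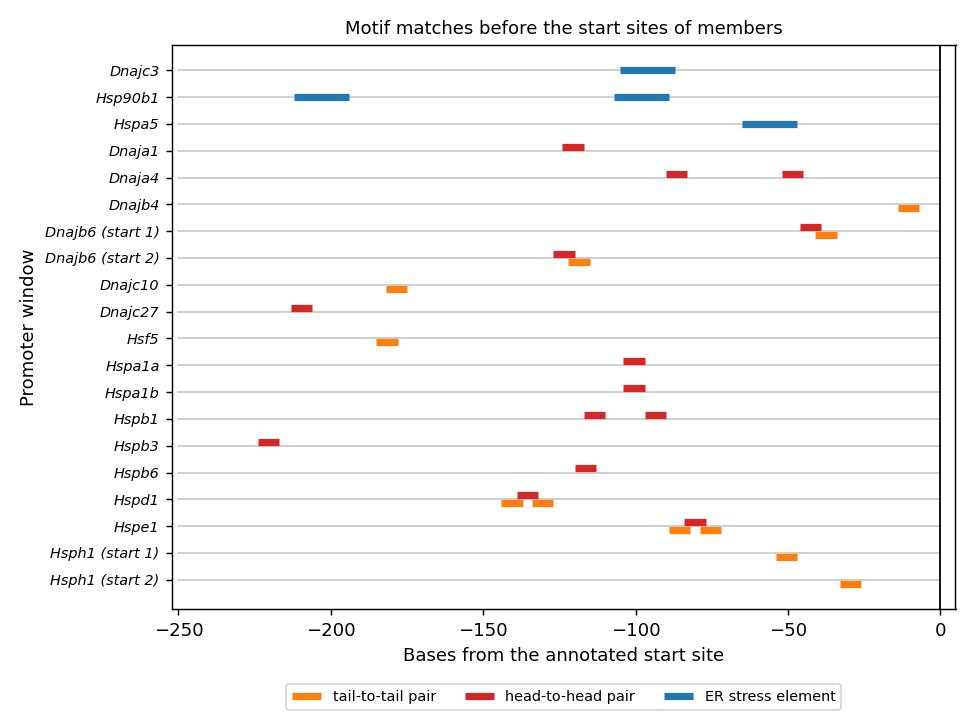
Positions of motif matches in the 250 bases before the annotated starts of 18 members (20 windows, 1 row each; the horizontal axis is the distance to the start in bases). Red and orange bars are the pairs GAANNTTC and TTCNNGAA and blue bars the ER stress element, which lies before Hspa5, Dnajc3 and, at 2 places, Hsp90b1.

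The ER stress element was searched on both strands as CCAAT and CCACG with 9 bases of any kind between them. It is shown for the 3 members that hold it, since their levels did not go the same way in GFP- HSCs against MPPs.
Hspa5, chr2:34772020-34772048, plus strand: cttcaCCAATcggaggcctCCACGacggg
Hsp90b1, chr10:86705525-86705664, minus strand: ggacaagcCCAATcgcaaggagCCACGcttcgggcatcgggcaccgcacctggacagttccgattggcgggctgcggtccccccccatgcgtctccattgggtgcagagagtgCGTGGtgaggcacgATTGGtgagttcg
Dnajc3, chr14:118937807-118937866, plus strand: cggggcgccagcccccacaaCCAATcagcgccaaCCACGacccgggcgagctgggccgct
All 3 stretches lie before the outermost RefSeq start of the gene. In the GENCODE M21 annotation, however, the Hspa5 stretch overlaps an exon of Hspa5. These 3 were among 11 ER members with a window. The element occurred in 35 of 27025 genes in all (0.130%). A match describes letters in a window and does not show binding.

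As a whole, the family was abundant in all libraries and slightly lower in GFP+ HSCs. The summed level of the 79 genes was 310881, 288099 and 255378, or 1.16%, 1.14% and 1.01% of all levels. Hspa5, Hsp90ab1, Dnajb1, Hsp90b1 and Hspa9 together made up 54.8%, 58.5% and 56.1% of that sum. Cytosolic Hsp70 had the widest ratio between populations among the abundant groups, with sums of 31016, 18042 and 13843. Class A and B J-domain proteins of the cytosol went the other way, at 31959, 40500 and 36796.

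**Figure D2:**
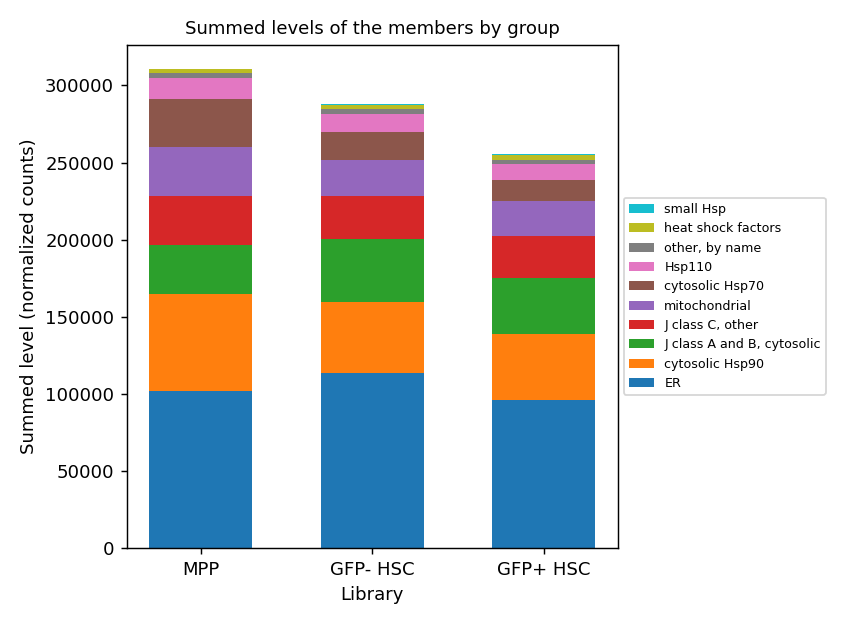
Summed levels (normalized counts, vertical axis from 0) of the 79 genes in each library, divided by group. ER members form the largest part of each bar (102235, 113645 and 96065 from left to right), and the cytosolic Hsp70 part is 31016 in the MPP bar and 13843 in the GFP+ HSC bar.

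Ratios were taken as the log2 of (level + 5), and a gene counts as 2-fold apart when that ratio reaches 1 in size. In GFP- HSCs against MPPs, 4 of 63 members were at least 2-fold higher (6.35%, where 11.6% of all genes were) and 1 was at least 2-fold lower (1.59%, where 5.53% were). The higher ones were Hspb8, Dnaja4, Hspa12b and Dnajb2, and the lower one was Hspa1a. In GFP+ HSCs against MPPs, 5 were higher and 5 lower (7.94% each, where 13.7% and 8.60% of all genes were). Hspb8, Dnaja4, Dnajb2, Dnajc12 and Dnajb9 were higher, and Hspa1a, Dnajc6, Dnajb13, Hspa1b and Hspe1 lower. In GFP+ against GFP- HSCs, 0 were at least 2-fold higher (0.410% of all genes) and 1, Dnajc6, was lower (0.870% of all genes). The shares of members at least 2-fold apart lay below those of all genes in both comparisons with MPPs, in each direction, but rest on 1 to 5 genes each. The members 2-fold apart include Hspb8 and Dnajb13, which passed the minimum mean only through the populations where they were high. At 1.5-fold, 8 members were higher and 8 lower in the GFP- fraction than in MPPs, 16 in all (25.4%, where 32.7% of all genes passed in either direction). For GFP+ HSCs and MPPs these were 11 and 13, 24 in all (38.1%, where 40.2% did). Between the HSC fractions, Hspb8 was higher in GFP+ cells and Dnajc6, Hspa1a and Dnajb13 were lower, 4 in all (6.35%, where 5.44% did).

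Counting differences of any size, 27 members were higher and 36 lower in GFP- HSCs than MPPs, where 49.2% and 50.6% of all genes were. In GFP+ HSCs against MPPs the counts were again 27 and 36, where 50.7% and 49.2% of all genes were. In GFP+ against GFP- HSCs, 24 were higher and 39 lower, where 51.7% and 47.8% were. The median log2 ratio of the members was -0.09, -0.14 and -0.05 in these comparisons, beside -0.01, 0.01 and 0.01 for all genes compared. These comparisons share libraries and are not independent of each other. The small medians cover groups that differed from each other, and the groups are taken in turn. Counts of any size within a group are to be read beside the shares of all genes given here.

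**Figure D3:**
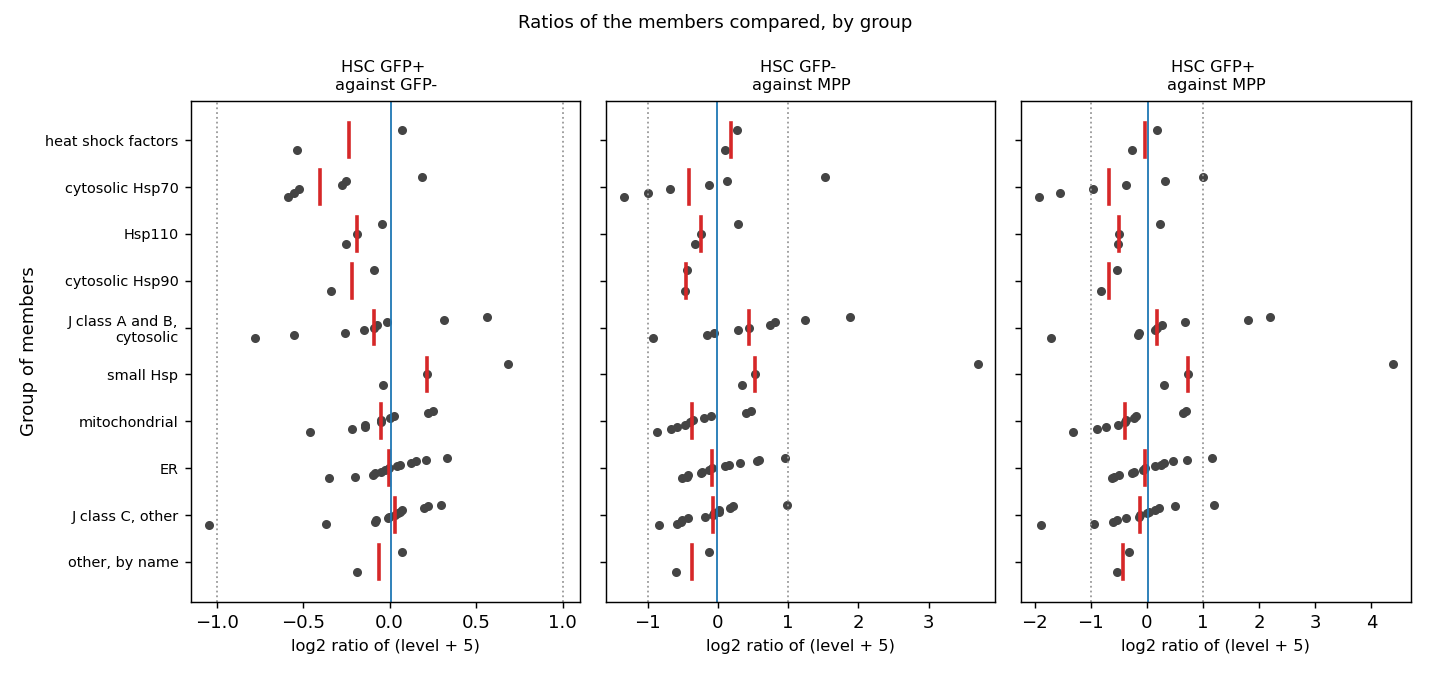
Log2 ratios of (level + 5) for the 63 members compared, 1 point per gene, by group (rows) and comparison (panels, each with its own horizontal scale). Red bars are group medians, the blue line is the median of all 11951 genes and dotted lines mark 2-fold; cytosolic Hsp70 medians lie at -0.40, -0.41 and -0.67 from left to right, and the point farthest right in the panels against MPPs is Hspb8.

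The factors of the response were at similar levels in the 3 populations. Hsf1, the main activator of heat shock genes, stood at 2519, 2710 and 2849, with GFP+ HSCs 1.13-fold above MPPs. Hsf2, a related factor, stood at 191, 233 and 159, and was 1.47-fold lower in the GFP+ than the GFP- fraction. Hsf4 (5, 14 and 9) and Hsf5 (2, 3 and 0) were close to the bottom of the scale, and Hsf3 was listed at 0 in all libraries.

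Among the cytosolic Hsp70 genes, the strongly heat-inducible pair Hspa1a and Hspa1b was much higher in MPPs than in either HSC fraction. Hspa1a (chromosome 17, 34969359 to 34972156) had a level of 7456 in MPPs, against 2950 in the GFP- and 1963 in the GFP+ fraction. Hspa1b (chromosome 17, 34956429 to 34959238) stood at 10147, 5084 and 3459. For both genes MPPs were highest and GFP+ HSCs lowest. Libraries of this chemistry do not mark strand, and Hspa1a shares 564 exon bases with Gm20481 on the opposite strand, whose level was not analysed here; Hspa1b shares 0 with any such gene. Of the Hspa1a transcript, 58.8% of stretches of 50 bases also occur in Hspa1b, and it is not stated how the authors counted reads that fit both, so how reads divide between the pair is uncertain. Their sum does not depend on that division, though it would miss reads discarded for fitting both, and was 17603, 8034 and 5422. Relative to MPPs this sum was 2.19-fold lower in the GFP- and 3.25-fold lower in the GFP+ fraction, and between the fractions it was 1.48-fold lower in GFP+ cells. Taken alone, Hspa1b fell just short of the 2-fold line between MPPs and GFP- HSCs, at 1.996-fold lower, and Hspa1a was 2.53-fold lower there.

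Hspa8, which encodes the constitutive cytosolic Hsp70, had a smaller difference in the same direction, at 9694, 6036 and 4985. Its level was 1.61-fold (GFP-) and 1.94-fold (GFP+) below that of MPPs. The summed inducible pair was 1.82, 1.33 and 1.09 times the Hspa8 level. Per kilobase of transcript, Hspa1a reached 0.621, 0.394 and 0.318 of the Hspa8 level. The inducible pair therefore made up less of the cytosolic Hsp70 transcript in HSCs than in MPPs.

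In the other genes of this group the differences were smaller or of the opposite sign. Hspa14, an Hsp70 bound to ribosomes, stood at 2891, 2645 and 2221, and Hspa2, known from the testis, at 548, 600 and 684. Hspa12b, an atypical Hsp70 known from endothelial cells, went the other way. Its levels were 238, 692 and 479, so that GFP- HSCs were 2.91-fold above MPPs and 1.44-fold above GFP+ HSCs. Of the 6 genes compared, 4 were lower in the GFP- fraction than in MPPs and 5 were lower in GFP+ than GFP- cells. Of 2 genes under the minimum, Hspa1l stood at 33, 29 and 33 and Hspa12a at 9, 6 and 19.

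Both cytosolic Hsp90 genes were lower in HSCs. Hsp90ab1, the constitutive form, stood at 55833, 41259 and 38800 and ranked 17 of all genes by level in MPPs. Hsp90aa1, the inducible form, stood at 6698, 4824 and 3809. Both were highest in MPPs and lowest in GFP+ HSCs. In GFP+ HSCs against MPPs, Hsp90ab1 was 1.44-fold and Hsp90aa1 1.76-fold lower. Per kilobase, Hsp90aa1 reached 0.0921, 0.0898 and 0.0754 of the Hsp90ab1 level, so the constitutive form dominated in each library.

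The Hsp110 genes, which reset Hsp70 by nucleotide exchange, were divided. Hspa4 stood at 8443, 7138 and 5983 and Hsph1, the heat-inducible Hsp105, at 3210, 2572 and 2258. Both were highest in MPPs. Hspa4l had its lowest level in MPPs, at 1539, 1877 and 1820. Between MPPs and GFP+ HSCs, Hspa4 was 1.41-fold and Hsph1 1.42-fold lower in the latter, and Hspa4l 1.18-fold higher. With the trend of the ratios on transcript length and GC removed, all 3 were lower in either HSC fraction than in MPPs.

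Of the J-domain proteins of classes A and B, which deliver substrates to cytosolic Hsp70, several were higher in HSCs. Dnajb1, the heat-inducible partner of Hsp70 also called Hsp40, was the most abundant at 17297, 23434 and 19627. In the GFP- fraction it was 1.35-fold above MPPs, in the opposite direction from Hspa1a, Hspa1b and Hspa8. Dnajb4, which is also inducible, stood at 2729, 4580 and 4354, with GFP- HSCs 1.68-fold above MPPs. Both were lower in MPPs than in either HSC fraction.

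The farthest members of this group were less abundant. Dnaja4 (chromosome 9, 54698848 to 54716317) stood at 231, 861 and 1072, or 3.73-fold (GFP-) and 4.64-fold (GFP+) above MPPs. In all, 27 of the 79 members share exon bases with a gene on the opposite strand. Dnaja4 shares 1581 with Wdr61, and Wdr61 had levels of 3029, 2374 and 2067, which go the opposite way. Dnajb2, which also binds ubiquitin chains and is known from neurons, stood at 428, 1021 and 1510. These levels lie 2.39-fold and 3.53-fold above MPPs, and GFP+ cells were 1.48-fold above GFP- cells. Both genes were lowest in MPPs and highest in GFP+ HSCs.

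Dnaja1 and Dnaja2, general partners of Hsp70, hardly differed, at 2616, 2515 and 2366 and at 7973, 7198 and 7118. Dnajb6, which holds back protein aggregation, stood at 459, 559 and 505. Dnajb5 was highest in GFP- HSCs, at 114, 205 and 138. Dnajb13, known from the axoneme of sperm and cilia, stood at 86, 43 and 23. Its mean of 50.7 was just above the minimum, and it shares 305 exon bases with Ucp2 on the opposite strand, which was abundant and went the same way at 18540, 11622 and 9286. With a mean of 44.3, Dnajb3 fell just below the minimum, at 18, 59 and 56. Of the 9 genes compared, 6 were higher in GFP- HSCs than MPPs (7 when the libraries were rescaled to equal totals or equal upper quartiles), and 7 were lower in GFP+ than GFP- cells (6 with the trend of the ratios on mean level, the abundance trend, removed).

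Small heat shock proteins, which hold unfolded proteins without ATP, were low in all 3 libraries. Their summed level was 407, 669 and 780, which includes Hspb11 (164, 210 and 204), a gene placed here by name. Hspb8 (chromosome 5, 116408491 to 116422864), which works with the co-chaperone Bag3 in clearing aggregated proteins by autophagy, was close to the bottom of the scale in MPPs and higher in both HSC fractions. Its level was 8 there, 164 among GFP- and 266 among GFP+ HSCs. Relative to MPPs the log2 ratio of (level + 5) was 3.70 for the GFP- and 4.38 for the GFP+ fraction, and it was 0.68 between the fractions. Among the 63 members compared, these were the highest ratios in all 3 comparisons. Hspb8 passed the minimum mean only through the HSC libraries, so its high ratios against MPPs depend in part on that filter. Bag3 was similar in the libraries, at 451, 479 and 528.

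Hspb6 stood at 173, 251 and 292, lowest in MPPs. Hspb11, which belongs to intraflagellar transport despite its name, stood at 164, 210 and 204. Hspb1, the small heat shock protein Hsp27 of human cells, was under the minimum at 45, 39 and 14, and Hspb9 stood at 14, 4 and 2. Hspb2, Hspb3 and Hspb7 were at 2 or less. Overlap on the opposite strand was also annotated for Hspb6, at 125 exon bases.

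Mitochondrial chaperones were mostly lower in HSCs, where 8 of 10 lay below MPPs in either fraction. Of all genes, 50.6% were lower in GFP- and 49.2% in GFP+ HSCs. The median log2 ratio of the 10 was -0.37 for GFP- HSCs. Hspa9, the Hsp70 of the matrix, also called mortalin, stood at 15934, 11563 and 11168. Hspd1 and Hspe1 encode Hsp60 and Hsp10, the parts of the folding chamber of the matrix. Hspd1 (chromosome 1, 55077833 to 55088243) stood at 5873, 3920 and 3545, and Hspe1 (chromosome 1, 55088148 to 55091317) at 785, 430 and 311. Both were highest in MPPs and lowest in GFP+ HSCs.

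In GFP+ HSCs against MPPs, Hspd1 was 1.66-fold and Hspe1 2.52-fold lower. Once the length and GC trend was removed, the log2 ratio of Hspe1 was -0.79 in place of -1.32 and no longer reached 2-fold. Per kilobase, Hspe1 reached 0.418, 0.343 and 0.275 of the Hspd1 level. The annotated exons of the pair share 112 bases on opposite strands. Dnajc15 and Dnajc19, J-domain proteins of the import motor, stood at 971, 610 and 524 and at 462, 350 and 356. Dnaja3, the J-domain partner of Hspa9, stood at 3658, 3432 and 3111, and Dnajc11, part of the cristae complex, at 3175, 2496 and 2410. Dnajc30 stood at 463, 403 and 404. The exceptions were Dnajc28, at 259, 360 and 421, and Dnajc4, at 212, 281 and 335.

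ER members had no common direction. Hspa5, which encodes BiP, the Hsp70 of the ER, was the member with the highest level in all libraries, at 62791, 78480 and 61603. By level it ranked 12, 10 and 13 among all genes. GFP- HSCs were therefore highest, by 1.25-fold over MPPs and 1.27-fold over GFP+ HSCs, and MPPs and GFP+ HSCs were within 1.02-fold of each other. Hsp90b1, which encodes the ER Hsp90 GRP94, stood at 18407, 13767 and 11990 and was 1.34-fold lower in GFP- HSCs than MPPs. It shares 415 exon bases with 1810014B01Rik on the opposite strand, which had levels of 502, 389 and 428. Per kilobase, Hspa5 was 2.62, 4.39 and 3.95 times Hsp90b1. Dnajc3, an ER co-chaperone that inhibits the kinase PERK, was level at 4861, 4461 and 4647. The 3 genes with the ER stress element shown above therefore had 3 different patterns.

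Dnajb9, a partner of BiP in ER-associated degradation that restrains the sensor IRE1, was higher in HSCs. It stood at 2248, 4365 and 5055, or 1.94-fold and 2.25-fold above MPPs. Dnajb11, another BiP partner that binds folding substrates, went the other way at 3390, 2381 and 2247. Dnajc10, a disulfide reductase, stood at 4550, 3859 and 3784 and Hspa13 at 1789, 1535 and 1534. Dnajc1 (1907, 2129 and 2368) and Dnajc18 (508, 764 and 834) were lowest in MPPs and highest in GFP+ HSCs. Dnajb14 (366, 542 and 506) and Dnajb12 (642, 689 and 709), both of the ER membrane, were higher in HSCs, Dnajc25 was lower (284, 208 and 201), and Dnajc16 was highest in GFP+ HSCs (492, 465 and 587). In all, 6 of 13 were higher and 7 lower in GFP- HSCs than MPPs, and again 6 and 7 in GFP+ against GFP- cells (7 and 6 after rescaling to equal totals).

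The remaining class C proteins use the J domain in specialised settings, and 1 of them had the only 2-fold difference between the HSC fractions. Dnajc6 (chromosome 4, 101496648 to 101642799) encodes auxilin, which recruits Hspa8 to strip clathrin from vesicles. Its levels were 1637, 915 and 441, so GFP+ HSCs were 2.07-fold below GFP- HSCs and 3.71-fold below MPPs. Dnajc9, a histone chaperone, also was highest in MPPs and lowest in GFP+ HSCs, at 4527, 3024 and 2346. Dnajc2, a ribosome-bound co-chaperone, stood at 3190, 2229 and 2103, and Dnajc8, found with the splicing machinery, at 4017, 2980 and 3105.

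The other genes of this class had no common direction. Dnajc5, the cysteine string protein of secretory vesicles, stood at 5726, 5768 and 5746, within 1.01-fold in the 3 libraries. Dnajc14 (3177, 3201 and 3273) and Dnajc7 (4426, 4234 and 4007) differed little. Dnajc12, a co-chaperone of aromatic amino acid hydroxylases, stood at 138, 277 and 324. GFP+ HSCs were 2.35-fold above MPPs, and with the abundance trend removed its log2 ratio was 0.99. Dnajc27, a Rab-like GTPase with a J domain, stood at 1068, 1236 and 1519, and Dnajc13, of endosomes, at 2268, 2550 and 2639. Dnajc17 was lower in HSCs (224, 154 and 153), and Dnajc21 and Dnajc24, in ribosome assembly and diphthamide synthesis, stood at 891, 784 and 823 and at 522, 505 and 580. Of the 13 compared, 5 were higher and 8 lower in GFP- HSCs than MPPs, 7 were higher and 6 lower under either rescaling, and 3 were higher and 10 lower with the length and GC trend removed.

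**Figure D4:**
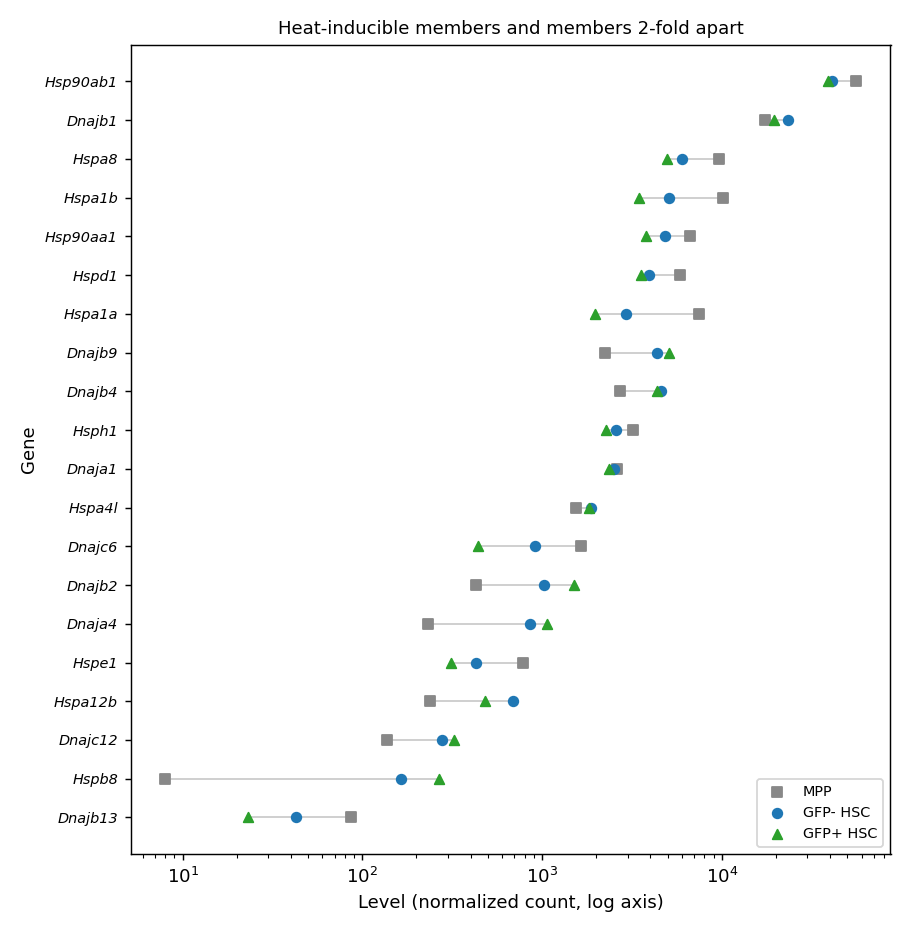
Levels (normalized counts, log axis) of the 20 compared members that are listed as heat-inducible or 2-fold apart in at least 1 comparison, 1 point per library. Hspa1a, Hspa1b, Hspe1, Dnajc6 and Dnajb13 lie highest in MPPs (grey squares), whereas Hspb8, Dnaja4, Dnajb2, Dnajc12 and Dnajb9 lie lowest there. GFP+ HSCs (green triangles) lie left of GFP- HSCs (blue circles) for the genes listed as heat-inducible.

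The 13 members listed as heat-inducible were lower among GFP+ than among GFP- HSCs, by small amounts. They are Hspa1a, Hspa1b, Hspa8, Hspa4l, Hsph1, Hsp90aa1, Hsp90ab1, Dnaja1, Dnajb1, Dnajb4, Hspb1, Hspd1 and Hspe1. The list thus includes Hspa8 and Hsp90ab1, described above as constitutive. The list was chosen with earlier results of these data known, so its counts depend on which genes were listed. All 12 that passed the minimum were lower in GFP+ HSCs (47.8% of all genes were lower), with a median log2 ratio of -0.22 and a range from -0.59 for Hspa1a to -0.04 for Hspa4l. The 12 remained lower under both rescalings and with the abundance trend or the length and GC trend removed, with medians from -0.25 to -0.20. Against MPPs, 9 of 12 were lower in GFP- HSCs (50.6% of all genes were), with a median of -0.45, and the exceptions were Dnajb1, Dnajb4 and Hspa4l. The count of 9 was 8 under either rescaling or with the abundance trend removed, and 10 with the length and GC trend removed. Hspb1 was under the minimum and also lower in GFP+ HSCs. Members with the heat shock pair GAANNTTC before their start did not all go this way. Of 9 compared, 6 were lower in GFP+ than GFP- HSCs, and Dnaja4, Dnajc27 and Hspb6, which are not on the list, were higher.

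The head-to-head heat shock pair occurred both in members that were higher and in members that were lower in HSCs. Of 9 compared members with GAANNTTC before their start, Hspa1a, Hspa1b, Hspd1, Hspe1 and Dnaja1 were lower in GFP- HSCs than MPPs. Dnaja4, Dnajb6, Dnajc27 and Hspb6 were higher. Dnaja4, whose printed pairs stand before an internal start, was the farthest higher of the 9, and Hspa1a and Hspa1b, with identical stretches, were the farthest lower. For Hspb6 and Hspd1 the pair also stands before an internal start.

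The last 2 rows come in by name alone. Hspbp1, an exchange factor that binds Hsp70, stood at 3081, 2818 and 2468, and Hspbap1 at 139, 90 and 95. Of all members, 16 were under the minimum mean, and 4 of them (Hsf3, Hspb3, Dnajb8 and Dnajc5g) were listed at 0 in every library. Dnajb7 stood at 8, 25 and 27, and Dnajc22 and Dnajc5b at 3 or less.

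Partners of these chaperones outside the name pattern were set beside them. Of all genes compared, 50.6% were lower in GFP- HSCs than MPPs and 47.8% in GFP+ than GFP- HSCs. Of 13 subunits of the chaperonin TRiC, which folds actin and tubulin, and of its helper prefoldin, all 13 were lower in GFP- HSCs than MPPs (median -0.34) and all 13 were lower in GFP+ than GFP- cells (median -0.15), and 0 were 2-fold apart. With the length and GC trend removed, 12 and 10 were lower. Tcp1 stood at 11667, 7274 and 6528, Cct5 at 17473, 11600 and 10802 and Cct2 at 7895, 6413 and 5218, and the prefoldin gene Pfdn1 at 729, 662 and 632. Of 15 co-chaperones of Hsp70, 12 were lower in GFP- HSCs than MPPs (median -0.16) and 9 were lower in GFP+ than GFP- cells (median -0.05). The ER exchange factor gene Hyou1 (2162, 1228 and 1142) and the mitochondrial one, Grpel1 (2453, 1521 and 1225), were farthest lower in GFP- HSCs relative to MPPs, and Hscb, of iron-sulfur cluster assembly, was farthest higher (688, 1096 and 1036). Between the HSC fractions Grpel1 and Bag1, another exchange factor gene (5418, 4087 and 3357), were farthest lower.

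Of 18 co-chaperones of Hsp90, 14 were lower in GFP- HSCs than MPPs (median -0.11), where 50.6% of all genes were. Between the HSC fractions, 11 were lower in GFP+ than GFP- cells (median -0.04), where 47.8% of all genes were. The first count, of 14, was 12 under either rescaling and 11 with the abundance trend removed. Fkbp5, which is also a glucocorticoid target, was farthest lower at 5416, 2917 and 2585, followed by Fkbp4 at 13787, 9233 and 8683. Tomm34 (3055, 3698 and 4026) and Unc45a (1456, 1712 and 1874) were farthest higher. Of 20 genes of the unfolded protein response, 13 were lower in GFP- HSCs than MPPs (median -0.27), and 1 was 2-fold lower and 1 was 2-fold higher. Sdf2l1, a partner of Dnajb11 and BiP, stood at 2056, 854 and 505, and the ER chaperone gene Calr at 41604, 24806 and 20680. Trib3, a pseudokinase gene induced by stress, stood at 146, 669 and 1052 and Ddit3, which encodes CHOP, at 1069, 1683 and 1335. The promoter element shown for Hspa5 occurred in 5 of 18 genes of this list with a window, among them Calr, Canx and Pdia6. Xbp1, the factor that IRE1 activates, was level at 4924, 4944 and 5218, and in GFP+ against GFP- cells 13 of the 20 were lower (median -0.12).

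Transcripts that move with cell handling, cell division and other cell types were measured beside the chaperones, and their part in the differences above was not tested. Of 25 immediate-early genes, which also respond to cell isolation, 21 were higher in GFP- HSCs than MPPs and 19 lower in GFP+ than GFP- cells (13 with the abundance trend removed), with summed levels of 844663, 1201317 and 1132739. Their sum was thus lowest in MPPs. Of the 12 members compared from the heat-inducible list, Dnajb1, Dnajb4 and Hspa4l were also lowest there. The other 9, Hspa1a and Hspa1b among them, were higher in MPPs than in GFP- HSCs. All 20 cell division genes were lower in GFP- HSCs than MPPs and in GFP+ than GFP- cells, at summed levels of 194892, 105634 and 75150. Hspa1a, Hspd1, Hsp90aa1 and Dnajc9 had this order, and Dnajb1, Dnajb4 and Hspa4l did not. Neutrophil markers summed to 16854, 1373 and 2037, of which Elane, which early progenitors also express, gave 16125, 557 and 425. The other 8 summed to 729, 816 and 1612, so without Elane the sum was highest in GFP+ HSCs. Of the 7 compared, 6 were higher in GFP+ than GFP- cells, with a median log2 ratio of 0.88, among them Ngp at 94, 165 and 499 and Ltf at 86, 165 and 323. B cell markers summed to 1341, 769 and 903, with Pax5 and Ms4a1 listed at 0 in both HSC libraries. Of 9 erythroid markers, which summed to 1949, 2809 and 1174, all 4 haemoglobin genes were listed at 0 in each library. Stromal and endothelial markers summed to 6664, 4023 and 4319, most of it from Pecam1 (4053, 2304 and 2098) and Pdgfrb (2472, 589 and 503). Leaving out Pecam1 and Pdgfrb was chosen after the values were seen. The other 6 summed to 139, 1130 and 1718, lowest in MPPs, whereas the sum of all 8 was highest there. Most of the sum of the 6 in HSCs came from Kdr, a receptor of endothelial cells (18, 444 and 713), and Col1a2 (28, 457 and 679). Col1a1 stood at 17, 22 and 294. The 6 did not share 1 direction, since Cxcl12 (66, 187 and 29) and Cdh5 (10, 10 and 3) were lowest in GFP+ HSCs. Lepr was listed at 0 in MPPs and GFP+ HSCs.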

How the data were processed

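RNA from 3 sorted populations was copied with a SMART-seq v4 kit, which does not mark strand, per the labels' protocols. STAR, DESeq2 and mm10 are named in the submitters' processing notes; for versions, annotation, read counting and pooling, nothing is stated in the sources used here. The authors deposited 1 table of normalized counts per gene as whole numbers, treated here as a score because the size factors are not given; depth per library is therefore unknown, and no interval or detection limit was computed. Of 23420 rows, 27 with a date in place of a symbol were left out.

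Log2 ratios of (level + 5) were taken for genes with a mean of at least 50. No test was possible with single libraries. The calculation was tested on simulated data. The members and lists were chosen with earlier results of these data known. Named were members 2-fold apart, the most abundant and most extreme of each group, heat-inducible members and heat shock factors, and the extremes of the lists of partners; further members are given to account for all of them. Groups follow general knowledge of where each protein acts. Transcript lengths (for levels per kilobase and the length and GC trend) are those of the longest protein-coding GENCODE M21 transcript, found for all members, and opposite-strand exon overlap is from the same annotation. Promoters and gene coordinates are from RefSeq GRCm38.p6. Lists of immediate-early, cell division, neutrophil, B cell, erythroid, and stromal and endothelial genes were measured beside the members. The sums without Elane, and without Pecam1 and Pdgfrb, were chosen after the values were seen. Alternatives were other pseudocounts, minimum means and scalings, removal of trends on abundance or on length and GC content (lowess), a 4-fold threshold, summing Hspa1a and Hspa1b, and leaving out 3 genes taken in by name. The tools were numpy 2.4.6, pandas 2.3.3, statsmodels 0.14.6 and matplotlib 3.10.9 under Python 3.11.15.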

Additional observations from a re-analysis of the deposited data

How the results depend on the processing

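The median log2 ratio of all members kept its sign and moved by less than 0.1 in each comparison under every alternative run. The medians are themselves about this small, so this does not show that they are stable. With equal totals, the median in GFP- HSCs against MPPs was -0.02 in place of -0.09, with 30 members higher and 33 lower. In GFP+ HSCs against MPPs it was -0.07 in place of -0.14. The medians of all genes were then 0.06 and 0.09. Counts of 2-fold members, being small, moved more. In GFP+ against GFP- HSCs, a minimum mean of 10 and no minimum each gave 1 higher and 2 lower, in place of 0 and 1. In GFP- HSCs against MPPs, 2 in place of 1 were lower with no minimum and with the abundance trend removed. At 4-fold, the counts lower were 0 in all 3 comparisons, and those higher were 1 in GFP- HSCs and 2 in GFP+ HSCs against MPPs. Without a minimum, the median of the small heat shock proteins in GFP+ against GFP- HSCs was -0.041 in place of 0.21. That list then includes genes at or near 0. The median of cytosolic Hsp70 in the same comparison was -0.28 with Hspa1a and Hspa1b summed, in place of -0.40. It was -0.26 with a minimum mean of 10 and with no minimum. Equal totals or equal upper quartiles put Dnajb9 (1.03 and 1.02) and Dnajc12 (1.05 each) past 2-fold in GFP- HSCs against MPPs. Rescaling moved the median of all genes by at most 0.08. No paired analysis was possible because each population has 1 library. Variation between sorts, mice and libraries cannot be judged from these data, and depth, which limits low genes such as Hspb8 in MPPs, is unknown.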
